A study of Mus musculus with 12 samples.

Results

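Small RNA libraries of stem-like medulloblastoma cells carrying guides against the long non-coding RNA Miat were compared with control-guide libraries, over every non-coding RNA class in the count tables. The 8 libraries, of 12 in the series, were taken by their titles: 4 labelled sgGal4 (libraries 1 to 4) and 4 labelled sgMiat, of which 2 carry guide 6 (6-1 and 6-2) and 2 carry guide 96 (96-1 and 96-2). All 8 come from cerebellar tumour cells of 1 mouse genotype, Math1-Cre; SmoM2, in which a Cre expressed in granule neuron progenitors switches on SmoM2, a constantly active mutant of Smoothened, the protein that relays the Hedgehog signal. Control cells are labelled WT beside that genotype, so the oncogene is present in both groups. The other group is labelled Miat knockdown, and the series design names CRISPR without saying whether the guides cut or repress. Gal4 is a yeast transcription factor with no counterpart in mice. The labels give neither the age of the animals nor the source culture or mouse of each library, so the p-values reflect how far these libraries spread, and that spread may be technical. The 8 tables list 3942 symbols: 1440 were counted at least once in the 8 libraries and 2502 were at 0 throughout.

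A small RNA library samples far more than microRNAs. Small nucleolar RNAs (snoRNAs) sit mostly in introns of ribosomal protein and translation genes, and guide chemical marks on ribosomal RNA. Those of the C/D box class direct methylation of the ribose and those of the H/ACA class direct pseudouridine formation, while small Cajal body RNAs (scaRNAs) do the same for the RNAs of the spliceosome. RNase MRP cleaves the ribosomal RNA precursor and RNase P trims the leader of transfer RNA precursors, and each holds a long catalytic RNA. Miat is a nuclear long non-coding RNA expressed in neural progenitors. Hedgehog-driven medulloblastoma arises from granule neuron progenitors, and the miR-17-92 cluster is known to promote this tumour.

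Counts on Miat itself were few and did not follow the label. They were 0, 1, 1 and 1 in the 4 controls, 49 and 30 in the libraries labelled sgMiat-6 and 1 and 0 in those labelled sgMiat-96. The libraries of guide 6 thus held more counts on the targeted RNA than any control, which goes against the group name, so groups are called by their labels below. Small fragments are no measure of how abundant a long RNA is. With each set of identical rows of a symbol counted once, libraries held 33624 to 64129 counts in the controls and 82276 to 160947 in the sgMiat libraries. Outside Rn45s the totals were 14688 to 27965 and 13289 to 43352. The markers of other tissues were at or near 0: all 6 muscle, 6 epithelial and 6 fibroblast miRNAs were at 0 in every library, the blood and immune list of 10 (6 in the tables) gave at most 1 count in a library, the 2 endothelial miRNAs gave none in controls and at most 6, and the 3 glial ones at most 5. Of the 22 neural miRNAs, 14 had counts, at 373 to 696 per control library.

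By class, the libraries labelled sgMiat carried more counts on the ribosomal RNA precursor and on RNase P RNA, and less on RNase MRP RNA, scaRNAs, snoRNA hosts and miRNA precursors. Rn45s, the precursor of the large ribosomal RNAs, took 56.3, 54.9, 54.0 and 56.4% of counts in the 4 controls, 73.1 and 72.01% in libraries 6-1 and 6-2 and 71.3 and 84.0% in 96-1 and 96-2. No sgMiat library was as low as any control. Library 96-2 stood apart from the rest of its group. Because 1 row of that size lowers every other share, the classes are given as shares of the counts outside Rn45s, with the shares of all counts beside them where the direction differs.

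Outside Rn45s, miRNA precursors held 16.1% ± 0.365 of counts in controls (SD, n = 4) and 10.9% ± 2.83 in the sgMiat libraries. Mir30d, described below, lost more of this share than the class did, so the other precursors together did not fall on average. scaRNAs held 3.74, 3.98, 4.23 and 4.35% in the controls against 0.978 and 1.09% with guide 6 and 2.05 and 2.34% with guide 96. All 4 sgMiat values lay below the lowest control. RNase MRP RNA fell from 30.4% ± 0.603 to 22.1% ± 3.44, and snoRNA host transcripts from 6.81% ± 0.639 to 4.20% ± 0.699. RNase P RNA held 0.551, 0.663, 0.435 and 0.440% in the controls, 1.53 and 1.55% with guide 6 and 8.14 and 5.30% with guide 96. Both guides were above the controls for RNase P RNA, and guide 96 was the higher. Without 96-1 the gap in RNase P RNA was 2.27 points in place of 3.60 outside Rn45s, and 0.331 in place of 0.773 points of all counts. H/ACA box snoRNAs rose from 1.23% ± 0.0674 to 2.74% ± 1.45 and long non-coding RNAs from 4.33% ± 0.0511 to 8.60% ± 1.73. Pseudogenes rose from 1.35% ± 0.192 to 2.37% ± 0.718 and non-coding transcripts of coding genes from 3.98% ± 0.268 to 6.93% ± 0.735. Gm10857, described below, made up the larger part of the mean gain in long non-coding RNAs, but little of it in 96-1. Part of the gain in coding-gene rows repeats a C/D box snoRNA, since 99.3% of the counts of Rabggtb matched those of Snord45c. Snord45c held 2.16, 1.91, 2.05 and 1.66% in the controls, 4.15 and 4.37% with guide 6 and 2.42 and 2.76% with guide 96. For H/ACA box snoRNAs the gap of 1.51 points was 0.843 without 96-2. Snora81 alone held 0.238, 0.144, 0.124 and 0.229% in the controls, 0.971 and 0.930% with guide 6 and 1.35 and 3.49% with guide 96. Its gain was nearly all of the class gap, so the other H/ACA rows together barely moved on average. Each of these 9 class differences had p = 0.0286 in the two-sided exact permutation test, the minimum for 4 against 4 libraries. The adjusted p was 0.0349 over 11 classes. C/D box snoRNAs held 30.1, 30.1, 29.9 and 30.5% in the controls, a narrow range, 40.8 and 39.2% with guide 6 and 28.4 and 33.0% with guide 96. Guide 6 was above the controls and the libraries of guide 96 lay on either side of them (exact permutation p = 0.143, n = 4 against 4). The remaining rows held 1.07% ± 0.0791 and 1.17% ± 0.364 (exact permutation p = 0.743).

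With Rn45s in the total, the classes that were lower outside it stayed lower, and most of the gains did not hold. C/D box snoRNAs and the remaining rows, which did not pass outside Rn45s, passed as lower on this scale. As shares of all counts, C/D box snoRNAs fell from 13.4% ± 0.285 to 8.85% ± 2.72, miRNA precursors from 7.18% ± 0.164 to 2.73% ± 1.10, scaRNAs from 1.82% ± 0.139 to 0.382% ± 0.144 and RNase MRP RNA from 13.5% ± 0.476 to 5.61% ± 1.89. RNase P RNA still rose, from 0.233% ± 0.0488 to 1.01% ± 0.907, and so did Rn45s itself, from 55.4% ± 1.16 to 75.1% ± 5.96. The host transcripts of snoRNAs and the remaining rows fell with them, and all of these passed (exact permutation p = 0.0286, adjusted p = 0.0429 over 12 classes, n = 4 against 4). H/ACA box snoRNAs (0.550% and 0.626%, exact p = 0.457), long non-coding RNAs (1.93% and 2.07%, exact p = 0.543), pseudogenes (0.601% and 0.573%, exact p = 0.771) and non-coding transcripts of coding genes (1.77% and 1.72%, exact p = 0.886) did not pass on that scale. For those classes, and for C/D box snoRNAs and the remaining rows, the call depends on whether Rn45s is in the total.

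**Figure D1:**
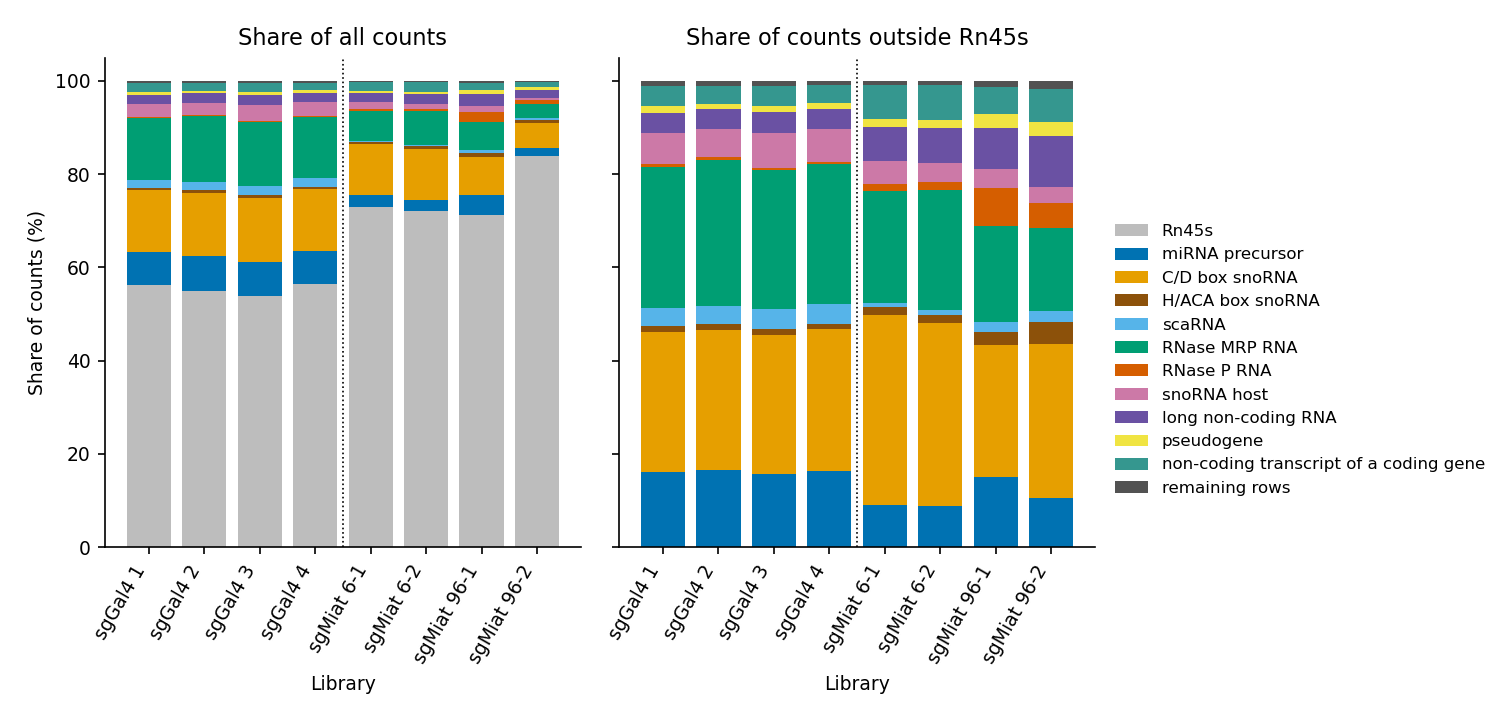
Share of counts by RNA class in each of the 8 libraries, in percent of all counts (left) and of the counts outside Rn45s (right), with 1 stacked bar per library and a dotted line between controls and sgMiat libraries. Rn45s takes 54.0% to 56.4% of counts in the controls and 71.3% to 84.0% in the sgMiat libraries, and outside it the RNase MRP and scaRNA bands are narrower and the RNase P band wider in the sgMiat libraries.

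Transcripts were then tested singly with edgeR's quasi-likelihood test on counts scaled by TMM factors, a scaling that trims rows of extreme abundance or change such as Rn45s. Of the 1440 symbols with counts, 121 passed the filter on low counts, and these held 89.7% to 94.9% of the counts outside Rn45s. In the sgMiat libraries 23 of the 121 transcripts changed at a Benjamini-Hochberg adjusted p under 0.05 (19%), 12 of them higher (9.92%) and 11 lower (9.09%). The groups did not overlap for 34 of the 121 (28.1%). The median log2 fold change over all 121 was 0.00074. Levels below are TMM-scaled counts per 1000000 (CPM), on which 3 counts stood for 21.3 to 71.9 CPM. A long and a short RNA at the same CPM do not have the same number of molecules, so levels are compared between libraries only. The count rests on all 4 controls: without control 1, 2, 3 or 4 the count was 8, 10, 8 and 9, and without 1 of the sgMiat libraries it was 19 to 22. In each of these fits all 23 kept their direction. The calls of Mir30d, Mir92b, Mir677, Snora81, Scarna6 and Rn45s held without any 1 of the 8 libraries, and each of the other 17 was lost without at least 1 control.

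**Figure D2:**
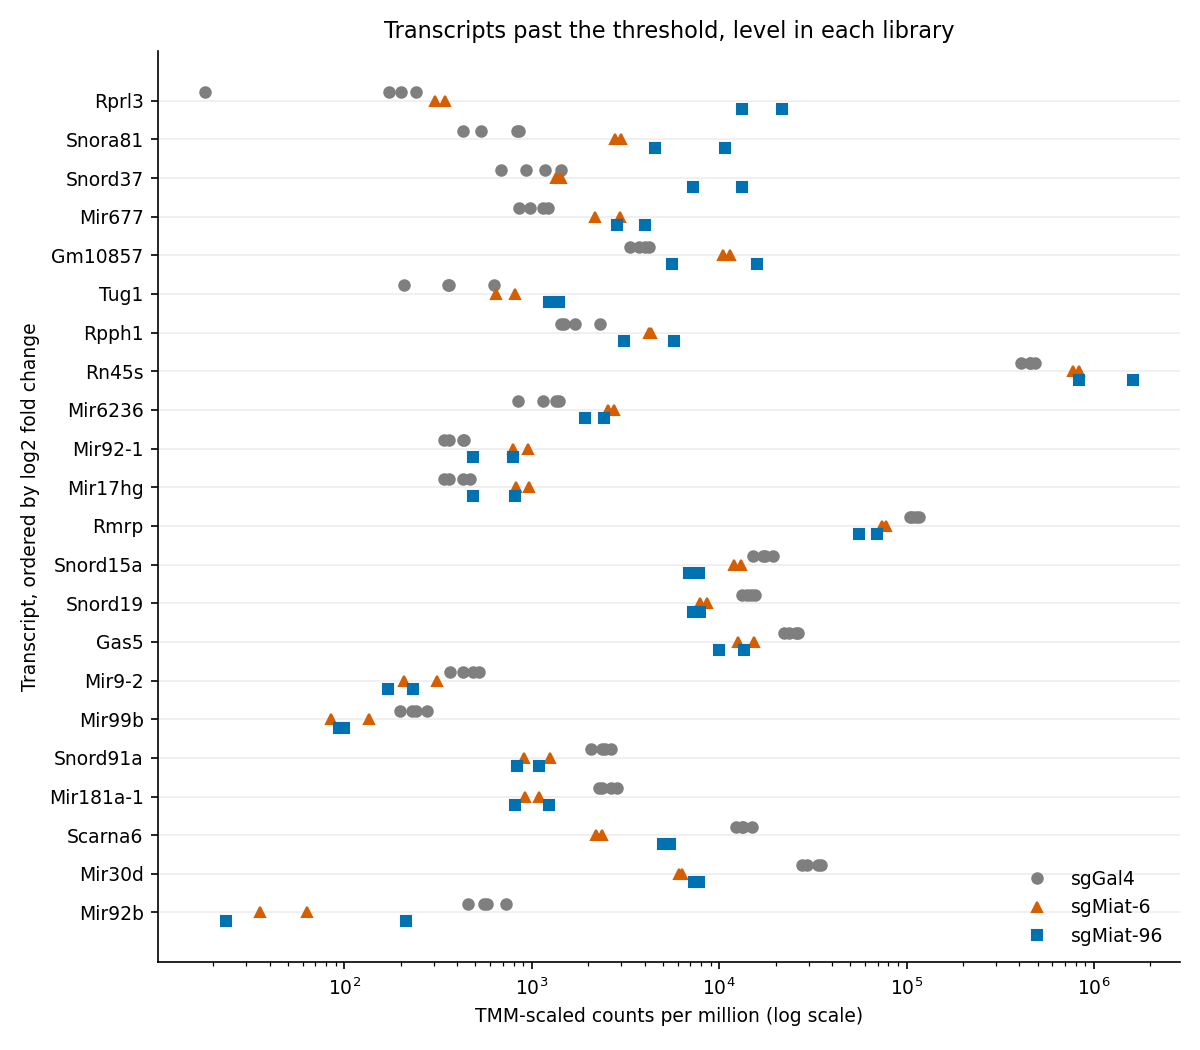
Level of 22 of the 23 transcripts past the threshold in each library, in CPM on a log scale, ordered by log2 fold change, with grey circles for the 4 controls, orange triangles for sgMiat-6 and blue squares for sgMiat-96. The 2 guides lie on the same side of the controls for most transcripts, and Rprl3 and Snord37 are set apart by the sgMiat-96 libraries.

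Among the RNAs that make or process ribosomal and transfer RNA, Rn45s and both RNase P rows rose and RNase MRP RNA fell. Rn45s stood at 453774, 456199, 405986 and 485762 CPM in the controls, 834390.0 and 771939 CPM in the libraries labelled sgMiat-6 and 835861 and 1620090.0 CPM in those labelled sgMiat-96, where values above 1000000 arise because TMM sets the effective library size of 96-2 below its total. Every sgMiat library was above every control (log2 fold change 1.17 ± 0.23 SE, adjusted p = 0.00744, edgeR). Rmrp, the RNA of RNase MRP, stood at 106566, 116899, 103824 and 112602 CPM in the controls, 73459 and 77161 CPM in the libraries labelled sgMiat-6 and 69393 and 55515 CPM in those labelled sgMiat-96. The lowest control was above the highest sgMiat library (log2 fold change -0.67 ± 0.14 SE, adjusted p = 0.00744, edgeR). Rmrp no longer passed with DESeq2 size factors (-0.47), in DESeq2 itself or without any 1 of the 4 controls (-0.50, -0.66, -0.52 and -0.70).

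Rpph1 is the RNA of RNase P, at chr14:50807449-50807767 (GRCm38, minus strand). Its level was 1701, 2307, 1489 and 1437 CPM in the controls, 4342 and 4229 CPM in the libraries labelled sgMiat-6 and 5753 and 3119 CPM in those labelled sgMiat-96. All 4 sgMiat libraries exceeded all controls (log2 fold change 1.33 ± 0.27 SE, adjusted p = 0.00744, edgeR). Without control 4 the change was 1.19 and missed the threshold. Rprl3, a second row named for RNase P RNA, at chr8:3803069-3803358 (minus strand), stood at 239.6, 173, 17.9 and 201 CPM in the controls, 305 and 344 CPM in the libraries labelled sgMiat-6 and 21546 and 13244 CPM in those labelled sgMiat-96. Guide 6 lay just above the highest control and guide 96 far above it (log2 fold change 5.80 ± 1.48 SE, adjusted p = 0.0268, edgeR). In the fit with 1 term per guide, Rprl3 changed by 1.10 ± 0.46 (SE, adjusted p = 0.086) with guide 6 and by 6.62 ± 0.40 (SE, adjusted p = 6.71e-08) with guide 96, and the guides differed by 5.51 ± 0.48 (SE, adjusted p = 3.02e-06). The combined call for Rprl3 was lost without any 1 control and in limma-voom, where the change was 3.67. The other 2 RNase P rows with counts did not reach the test.

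The RNase P rows are near copies of each other, so their sequences are shown with the longest stretch that is identical in both, 37 bases starting at base 109 of each, in capitals (GENCODE M21 transcripts, GRCm38).
Rpph1: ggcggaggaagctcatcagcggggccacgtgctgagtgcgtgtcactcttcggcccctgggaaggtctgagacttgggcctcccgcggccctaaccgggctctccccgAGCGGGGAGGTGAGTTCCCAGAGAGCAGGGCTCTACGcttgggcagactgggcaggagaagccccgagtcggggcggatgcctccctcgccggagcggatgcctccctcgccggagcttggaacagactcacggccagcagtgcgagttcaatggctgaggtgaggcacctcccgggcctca
Rprl3: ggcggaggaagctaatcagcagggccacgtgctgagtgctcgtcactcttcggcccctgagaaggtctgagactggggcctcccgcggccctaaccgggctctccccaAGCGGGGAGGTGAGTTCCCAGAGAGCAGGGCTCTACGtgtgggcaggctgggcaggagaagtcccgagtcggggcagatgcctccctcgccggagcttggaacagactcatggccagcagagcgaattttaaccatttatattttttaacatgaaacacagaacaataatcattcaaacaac
The first 290 bases of Rpph1 are shown. It is 319 bases long and Rprl3 290 bases, and 202 bases lie in matching runs of at least 8. How reads that match both were assigned is not given in the sources used here, so the split of counts between the rows is uncertain and the sum of the RNase P rows is given above as a class share.

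C/D box snoRNAs were the most numerous class tested. Of 75 symbols 67 had counts and 49 were tested, of which 2 rose (Snord37 among them), 3 fell (Snord19, Snord91a and Snord15a) and 44 did not pass, where 19% of all 121 transcripts passed. The median log2 fold change of the 49 was 0.02, near the 0.00074 of all tested transcripts. Snord37 and the 3 that fell are shown with the class's own sequence elements in capitals: the C box, searched as TGATGA in the first 25 bases, and the D box, searched as CTGA in the last 20, both read on the transcript strand only (GENCODE M21, GRCm38).
Snord37: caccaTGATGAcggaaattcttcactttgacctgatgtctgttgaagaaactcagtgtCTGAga
Snord19: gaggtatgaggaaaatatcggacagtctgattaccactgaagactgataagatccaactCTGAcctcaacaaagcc
Snord91a: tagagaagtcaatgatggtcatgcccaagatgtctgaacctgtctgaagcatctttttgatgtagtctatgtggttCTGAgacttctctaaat
Snord15a: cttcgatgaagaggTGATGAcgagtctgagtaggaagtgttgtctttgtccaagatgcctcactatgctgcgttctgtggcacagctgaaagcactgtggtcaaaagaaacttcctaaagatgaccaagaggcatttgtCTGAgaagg
Over the 73 C/D box rows matched to a transcript, 64.4% held that C box and 97.3% that D box, against 0% and 11.1% of 36 H/ACA box rows. Snord19 and Snord91a have no exact C box in that window. A match is a description of the letters.

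Snord19 lies in Gnl3, the gene of nucleostemin, at chr14:31016206-31016281. It stood at 13995, 14814, 13292 and 15528 CPM in the controls, 8607 and 7943 CPM in the libraries labelled sgMiat-6 and 7889 and 7216 CPM in those labelled sgMiat-96. The groups were far apart relative to their spread, and both guides gave nearly the same level (log2 fold change -0.86 ± 0.16 SE, adjusted p = 0.00744, edgeR). Snord91a, within Tsr1, a ribosome assembly factor gene, at chr11:74905424-74905516, stood at 2468, 2654, 2063 and 2378 CPM in the controls, 908 and 1249.8 CPM in the libraries labelled sgMiat-6 and 1096 and 838 CPM in those labelled sgMiat-96. Its groups did not overlap either (log2 fold change -1.22 ± 0.23 SE, adjusted p = 0.00744, edgeR). Snord15a, within the ribosomal protein gene Rps3 at chr7:99482785-99482932, stood at 17541, 17138, 15157 and 19316 CPM in the controls, 13048 and 11964 CPM in the libraries labelled sgMiat-6 and 7804 and 6913 CPM in those labelled sgMiat-96. The fall was larger with guide 96, at -1.38, than with guide 6, at -0.40 (difference -0.98 ± 0.22 SE, adjusted p = 0.00366, edgeR), and over both guides Snord15a changed by -0.80 ± 0.24 (SE, adjusted p = 0.0474, edgeR). The Snord15a call was lost with library totals that leave Rn45s out (-0.58). Without any 1 control Snord19 stayed between -0.87 and -0.69 and did not pass.

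Snord37 lies in Eef2, the gene of translation elongation factor 2, at chr10:81178950-81179013, and its high values were those of guide 96. It stood at 935, 1179.6, 682 and 1437 CPM in the controls, 1433 and 1340.4 CPM in the libraries labelled sgMiat-6 and 7277 and 13175 CPM in those labelled sgMiat-96. The libraries of guide 6 lay within the range of the controls (0.44 ± 0.33 SE, adjusted p = 0.359), those of guide 96 far above (3.13 ± 0.32 SE, adjusted p = 8.00e-06), and the guides differed by 2.69 ± 0.39 (SE, adjusted p = 1.56e-04) in edgeR. Over both guides it passed narrowly (log2 fold change 2.45 ± 0.73 SE, adjusted p = 0.0474, edgeR) and did not pass without any 1 control, where it was 2.36 to 2.53, or without 96-1 (2.33) or 96-2 (1.71). Snord49a, with the most counts of the C/D rows, stood at 8219.5, 11223, 10781 and 13996 CPM in the controls, 22067 and 18711 CPM in the libraries labelled sgMiat-6 and 17943 and 11732 CPM in those labelled sgMiat-96 and did not pass (log2 fold change 0.67 ± 0.24 SE, adjusted p = 0.0769, edgeR).

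Of 36 H/ACA box snoRNAs 33 had counts and 7 were tested. Of the 7, 1 rose and none fell, where 9.92% of all 121 transcripts rose and 9.09% fell. The riser was Snora81, which lies in Eif4a2, the gene of a translation initiation helicase, at chr16:23110756-23110933. It stood at 839, 538, 431 and 859.7 CPM in the controls, 2987 and 2789 CPM in the libraries labelled sgMiat-6 and 4543 and 10800.4 CPM in those labelled sgMiat-96. The lowest sgMiat library was well above the highest control (log2 fold change 2.98 ± 0.50 SE, adjusted p = 0.0069, edgeR), and the rise was larger with guide 96, by 1.22 ± 0.40 (SE, adjusted p = 0.0369). The Snora81 call held without any 1 library and under each scaling tried. Its sequence is shown because it passed with both guides, with no part in capitals.
Snora81: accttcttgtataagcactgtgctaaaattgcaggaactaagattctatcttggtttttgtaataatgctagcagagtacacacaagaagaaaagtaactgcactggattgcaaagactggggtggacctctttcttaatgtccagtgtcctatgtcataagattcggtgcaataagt
Snora7a, within the ribosomal protein gene Rpl32, differed between the guides: it stood at 1701, 1943, 1901 and 1854 CPM in the controls, 163 and 299 CPM in the libraries labelled sgMiat-6 and 2250.0 and 1047 CPM in those labelled sgMiat-96. With guide 6 it fell (-2.94 ± 0.35 SE, adjusted p = 2.97e-05), with guide 96 it did not pass (-0.31 ± 0.30 SE, adjusted p = 0.463), and the guides differed by 2.63 ± 0.38 (SE, adjusted p = 1.56e-04) in edgeR. Snora62, within Rpsa, did not overlap between the groups but missed the threshold (log2 fold change 1.16 ± 0.38 SE, adjusted p = 0.0587, edgeR).

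All 9 scaRNAs had counts and 4 were tested, with a median log2 fold change of -1.16. Of the 4, 1 was lower and none higher, against 9.09% lower and 9.92% higher of all 121 tested. Scarna6, within Atg16l1 at chr1:87784556-87784820, carried most of the scaRNA counts. It stood at 12221, 13288, 13364 and 14869 CPM in the controls, 2214 and 2364 CPM in the libraries labelled sgMiat-6 and 5454 and 5005 CPM in those labelled sgMiat-96. Every sgMiat library was well below the lowest control (log2 fold change -1.84 ± 0.33 SE, adjusted p = 0.0069, edgeR). Both guides passed on their own, guide 6 by -2.48 ± 0.21 (SE, adjusted p = 1.88e-06) and guide 96 by -1.51 ± 0.20 (SE, adjusted p = 7.41e-05), and guide 6 was the lower by 0.98 ± 0.22 (SE, adjusted p = 0.00368), tested as guide 96 minus guide 6. Its sequence is given here as that of the scaRNA that changed over both guides.
Scarna6: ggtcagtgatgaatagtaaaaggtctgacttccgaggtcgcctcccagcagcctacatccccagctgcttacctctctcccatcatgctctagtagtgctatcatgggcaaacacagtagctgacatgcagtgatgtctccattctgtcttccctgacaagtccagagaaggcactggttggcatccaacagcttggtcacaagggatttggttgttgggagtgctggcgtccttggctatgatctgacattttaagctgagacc
Scarna9 missed the threshold (log2 fold change -1.49 ± 0.53 SE, adjusted p = 0.0769, edgeR), with control 1 at 216 CPM inside the range of the sgMiat libraries. In the guide fit Scarna9 fell with guide 6 (-2.23 ± 0.53 SE, adjusted p = 0.0059) and did not pass with guide 96 (-1.03 ± 0.51 SE, adjusted p = 0.147, edgeR). Scarna3a gave -0.06, but 98.8% of its counts matched those of Mir1843b, a precursor within it, so that row is no separate measure. Scarna2 was too sparse for the test of 2 groups. Its counts were 6, 2, 1 and 8 in the controls, 13 and 12 with guide 6 and 28 and 46 with guide 96, given as counts and named after they were seen.

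Of 1116 miRNA precursor symbols 230 had counts and 27 were tested, with a median log2 fold change of -0.72. Among the 27, 3 were higher and 5 lower, where 9.92% of all 121 transcripts were higher and 9.09% lower. The 8 that changed are read through their mature strands, printed for the 7 of 8 matched to a RefSeq sequence here (GRCm38.p6), with the seed, bases 2 to 8, in capitals. The tables count the whole precursor, so which strand gave the reads is not known.
The first 4 lines belong to precursors that were higher, the others to precursors that were lower.
mmu-miR-677-5p: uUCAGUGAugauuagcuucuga
mmu-miR-677-3p: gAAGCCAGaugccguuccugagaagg
mmu-miR-6236: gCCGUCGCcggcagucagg
mmu-miR-92a-3p: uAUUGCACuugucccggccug
mmu-miR-92b-3p: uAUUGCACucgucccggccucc
mmu-miR-181a-5p: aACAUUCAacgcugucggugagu
mmu-miR-99b-5p: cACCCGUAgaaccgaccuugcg
mmu-miR-9-5p: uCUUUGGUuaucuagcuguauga
The main strands of Mir92-1, which rose, and Mir92b, which fell, share the seed AUUGCAC. The other seeds shown are each different.

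Mir30d, of the miR-30 family at chr15:68341208-68341289, had the lowest adjusted p of the comparison. It stood at 29499, 35109.6, 27570.4 and 33459.6 CPM in the controls, 6315 and 6104 CPM in the libraries labelled sgMiat-6 and 7761 and 7379 CPM in those labelled sgMiat-96. The 4 sgMiat libraries lay close together, well below the lowest control (log2 fold change -2.19 ± 0.17 SE, adjusted p = 4.23e-05, edgeR). Mir92b stood at 455, 729, 556 and 578 CPM in the controls, 35.5 and 63.4 CPM in the libraries labelled sgMiat-6 and 214 and 23.3 CPM in those labelled sgMiat-96. Every sgMiat library was below every control (log2 fold change -2.79 ± 0.57 SE, adjusted p = 0.00744, edgeR), though its counts there were only 5, 7, 15 and 1. Mir92-1, the last member of the miR-17-92 cluster, stood at 359, 434, 341 and 429.8 CPM in the controls, 958 and 797 CPM in the libraries labelled sgMiat-6 and 484 and 791 CPM in those labelled sgMiat-96. The groups did not overlap (log2 fold change 0.95 ± 0.28 SE, adjusted p = 0.0474, edgeR), and the call of Mir92-1 was lost in 7 of the 8 fits that leave out 1 library.

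Of 16 members listed for the miR-17-92 cluster and its paralogues, 11 had counts and 3 were tested. Mir92-1 and the host Mir17hg rose and Mir20a did not pass (log2 fold change 1.25 ± 0.51 SE, adjusted p = 0.107, edgeR), with a median of 0.95, against 9.92% higher of all 121 tested. Mir17hg is no separate observation, since 98.2% of its counts matched those of Mir92-1. In the guide fit Mir92-1 (1.22 ± 0.30 SE, adjusted p = 0.00643) and Mir20a (1.88 ± 0.37 SE, adjusted p = 0.00174) passed with guide 6. Neither passed with guide 96 (0.53 ± 0.33 and 0.09 ± 0.44 SE, adjusted p = 0.244 and 0.922, edgeR). The guides differed for Mir20a (-1.80 ± 0.46 SE, adjusted p = 0.00762) and did not pass as different for Mir92-1 (adjusted p = 0.156, edgeR). Mir19a was counted 0, 2, 1 and 0 times in the controls, 24 and 56 times with guide 6 and 5 and 5 times with guide 96. It was too sparse for the test of 2 groups and was named after its values were seen. Of 22 neural differentiation miRNAs listed, 14 had counts and 9 were tested. None rose and 3 fell (Mir92b, Mir181a-1 and Mir9-2), with a median of -0.88, against 9.92% higher and 9.09% lower of all 121 tested. The whole miRNA precursor class, which holds these 9, had 5 of 27 lower and a median of -0.72, so a fall is not particular to the list. These lists were drawn up with earlier results of these libraries known, so their direction is a description.

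Mir181a-1 stood at 2852, 2289.8, 2368 and 2646 CPM in the controls, 915 and 1087 CPM in the libraries labelled sgMiat-6 and 1239 and 815 CPM in those labelled sgMiat-96. Its groups were far apart (log2 fold change -1.32 ± 0.23 SE, adjusted p = 0.0069, edgeR). The second copy of the same mature miRNA, Mir181a-2, gave -1.17 and just missed (adjusted p = 0.0555, edgeR). The 3 copies of miR-9 gave like values, -0.73 for Mir9-1, -0.95 for Mir9-2 and -0.88 for Mir9-3, and Mir9-2 alone passed, at an adjusted p of 0.0498 in edgeR, and its call was lost in 7 of the 8 fits that leave out 1 library. Copies of 1 mature sequence can share reads, so these are not 3 separate measurements. Mir99b, within Spaca6, was lower (log2 fold change -1.16 ± 0.33 SE, adjusted p = 0.0425, edgeR) at 4 to 17 counts per library. Mir677 stood at 983, 1145, 1219.8 and 859.7 CPM in the controls, 2959 and 2164 CPM in the libraries labelled sgMiat-6 and 2862 and 4004 CPM in those labelled sgMiat-96. All sgMiat libraries were above all controls (log2 fold change 1.51 ± 0.26 SE, adjusted p = 0.0069, edgeR). Mir6236 rose with both guides (log2 fold change 1.03 ± 0.25 SE, adjusted p = 0.0193, edgeR), but lost its call with library totals that include Rn45s (0.44). Rn45s itself gave 1.17 and 0.44 on these scales. By guide, Mir6236 gave 1.23 with guide 6 and 0.73 with guide 96, and Rn45s 0.90 and 1.33. Whether Mir6236 and Rn45s share reads was not tested, so its count among the miRNA precursors that rose is by name.

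Of 1784 symbols classed as long non-coding RNA 533 had counts and 11 were tested, with a median of 0.78. Among the 11, 2 were higher and none lower, where 19% of all 121 transcripts passed. Tug1, a nuclear long non-coding RNA, was counted 15, 12, 20 and 47 times in the controls and 91, 90, 98 and 53 times in the sgMiat libraries, which is 359, 208, 359 and 631 CPM in the controls, 646 and 815 CPM in the libraries labelled sgMiat-6 and 1396 and 1234 CPM in those labelled sgMiat-96. The lowest sgMiat library was only just above the highest control (log2 fold change 1.37 ± 0.40 SE, adjusted p = 0.0474, edgeR). The call for Tug1 was lost without control 1, 2 or 3 (1.46, 1.11 and 1.45) and without 96-1 (1.20) or 96-2 (1.34). Gm10857 stood at 4242, 3712, 3354 and 4003 CPM in the controls, 10487 and 11420.2 CPM in the libraries labelled sgMiat-6 and 5568 and 15898 CPM in those labelled sgMiat-96. Its groups did not overlap (log2 fold change 1.5 ± 0.30 SE, adjusted p = 0.00744, edgeR). Of the 23 nuclear long non-coding RNAs listed, 14 had counts and 3 were tested (Malat1, Tug1 and Kcnq1ot1). Of these 1 was higher, against 9.92% of all 121 tested. Malat1, which sits in nuclear speckles, stood at 1869, 1509, 1399 and 2203 CPM in the controls, 1384 and 1150.2 CPM in the libraries labelled sgMiat-6 and 6878 and 2839.8 CPM in those labelled sgMiat-96. Its libraries of guide 6 lay below the lowest control, and over both guides it did not pass (log2 fold change 0.81 ± 0.54 SE, adjusted p = 0.345, edgeR).

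C430049B03Rik, a host transcript of the Mir351 cluster, gave log2 fold change -1.22 ± 0.66 SE, adjusted p = 0.232 in edgeR, but 97.8% of its counts matched those of Mir351 within it. Mir351, named after its values were seen, stood at 2468, 3001, 2439.5 and 3036 CPM in the controls, 390.2 and 199 CPM in the libraries labelled sgMiat-6 and 2051 and 2002 CPM in those labelled sgMiat-96. Guide 6 lay far below the controls (-3.13 ± 0.32 SE, adjusted p = 6.51e-06) and guide 96 a little below them (-0.58 ± 0.27 SE, adjusted p = 0.125), and the guides differed by 2.54 ± 0.34 (SE, adjusted p = 9.64e-05) in edgeR. Gas5, a host of many C/D box snoRNAs, was the only snoRNA host of 2 tested that changed, where 19% of all 121 transcripts passed. It stood at 23508, 22099.6, 25669 and 26327 CPM in the controls, 15383 and 12534 CPM in the libraries labelled sgMiat-6 and 13542 and 10009 CPM in those labelled sgMiat-96. All sgMiat libraries lay below all controls (log2 fold change -0.92 ± 0.18 SE, adjusted p = 0.00744, edgeR), and the call was lost without control 1 (-0.76), 3 (-0.73) or 4 (-0.91). Snord47, from an intron of Gas5, did not pass over both guides (log2 fold change -0.23 ± 0.30 SE, adjusted p = 0.652, edgeR) and fell with guide 96 alone (-0.95 ± 0.24 SE, adjusted p = 0.00985).

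The other classes gave no call over both guides. None of 7 pseudogenes, 5 non-coding transcripts of coding genes or 3 other small structured RNAs passed in edgeR, where 19% of all 121 transcripts did. The medians of these classes were 0.57, 0.60 and -0.39. Rabggtb, with the most counts of the coding-gene rows, follows Snord45c in its intron, which accounts for 99.3% of its counts, and gave 0.60. Vaultrc5, the RNA of the vault particle, gave -0.51 and fell with guide 6 (-1.74 ± 0.30 SE, adjusted p = 8.68e-04, edgeR). The minor spliceosome RNAs Rnu11 and Rnu12 gave 0.29 and -0.39, at 3 to 34 and 4 to 18 counts per library.

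How the total was drawn moved the balance of the calls. With library totals that include Rn45s, 35 transcripts passed, 3 higher and 32 lower, and the median of all 121 shifted to -0.65. With totals that leave Rn45s out, 25 passed, 17 higher and 8 lower, at a median of 0.21. DESeq2 size factors gave 16 higher and 7 lower, upper quartile factors 9 and 9, and TMM with Rn45s taken out first 9 and 8. All 23 calls kept their direction in every one of these, apart from Rn45s where it was not tested. Still called were 14 of the 23 with Rn45s in the total and 20 of 23 without it. The plot of fold change under 3 scalings shows each of the 22 transcripts drawn on 1 side of 0. With Rn45s in the total the 3 that rose were Rprl3, Snora81 and Rn45s.

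**Figure D3:**
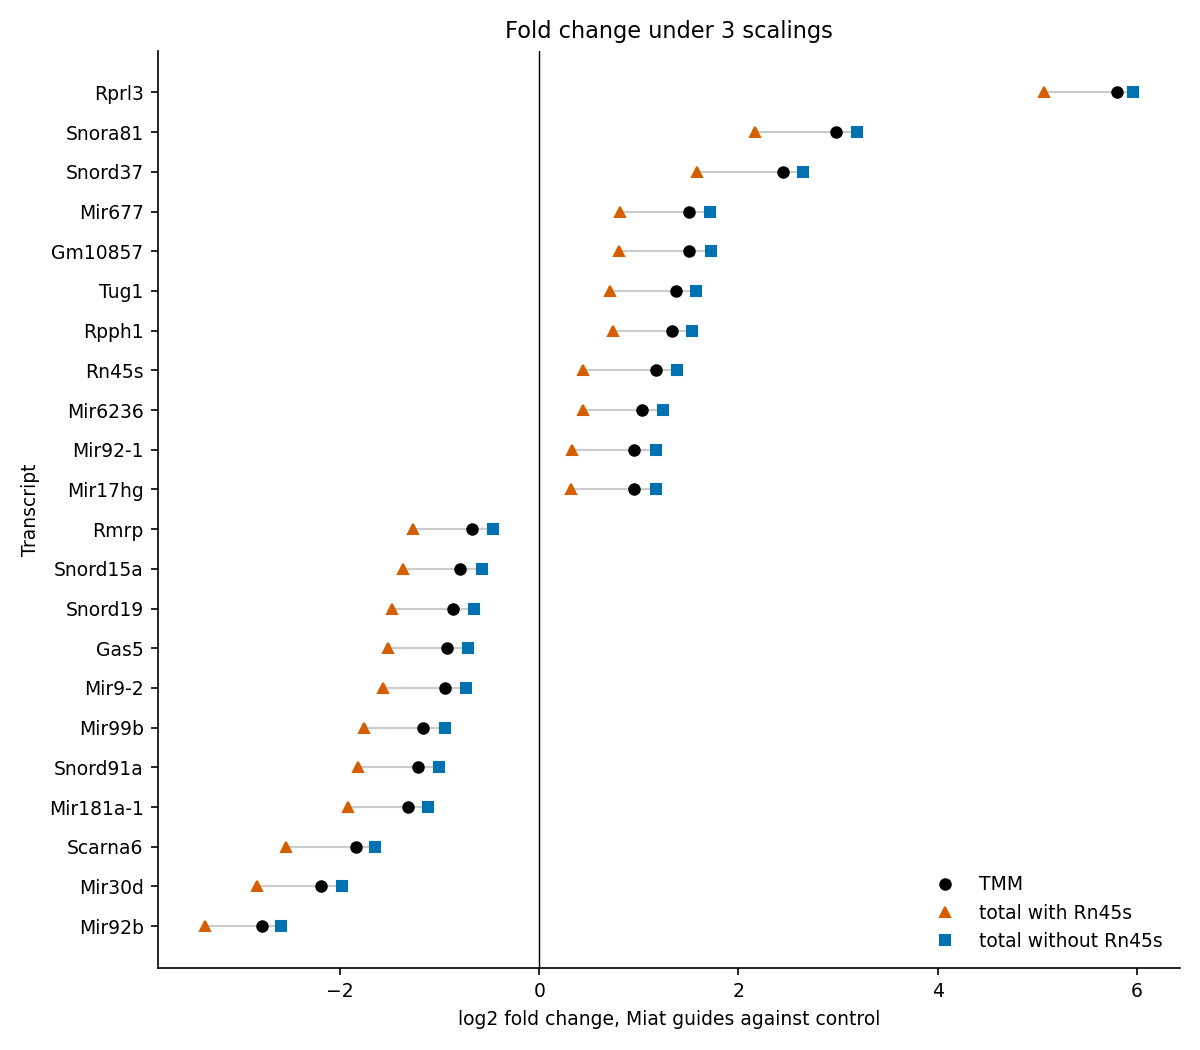
The log2 fold change of 22 of the 23 called transcripts, sgMiat libraries against control, under TMM (black circles), library totals with Rn45s (orange triangles) and library totals without Rn45s (blue squares). Totals with Rn45s move every transcript to lower values, by about the shift of the median from 0.00074 to -0.65, and none of the 22 crosses 0.

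Fitted with 1 term per guide, 176 transcripts were tested. Against the same 4 controls, guide 6 changed 58 of 176 (33%), 33 higher (18.8%) and 25 lower (14.2%), and guide 96 changed 51 (29%), 23 higher (13.1%) and 28 lower (15.9%). Of the 176 rows 55 were not in the test of 2 groups, and a row can enter the guide fit through the libraries where it is high. Those 55 gave 14 of the 58 calls and 6 of the 51. Each guide has 2 libraries, and without 6-1 the count for guide 6 was 29. The 2 libraries of guide 96 differed more from each other than those of guide 6 (chi-squared per degree of freedom 44.6 against 4.57). The guides share their controls, so their lists are set side by side: 21 transcripts were called with both, 18 in the same direction and 3 in opposite directions (4922502N22Rik, Snord45b and Snord83b). All 23 transcripts called over both guides had 1 sign in each, 16 of them called with each guide alone. Set directly against each other, the guides differed for 50 of 176 (28.4%), 25 higher with guide 96 (14.2%) and 25 lower (14.2%). Of these 50 calls, 12 were among the 55 rows not in the test of 2 groups and 38 among the others. Whether this is the guide, the culture or the library cannot be told apart, since each guide's 2 libraries may share a culture.

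C/D box snoRNAs are given here for each guide. Of 55 tested, 11 rose and 4 fell with guide 6, and 4 rose and 15 fell with guide 96, with medians of 0.04 and -0.65. Of all 176 tested, 33% passed with guide 6 and 29% with guide 96. Snord45b, from an intron of Rabggtb, rose with guide 6 (1.03 ± 0.25 SE, adjusted p = 0.0059) and fell with guide 96 (-1.23 ± 0.31 SE, adjusted p = 0.00985), as did Snord83b, from Rpl3 (0.57 ± 0.19 SE, adjusted p = 0.0343, and -0.79 ± 0.20 SE, adjusted p = 0.011, edgeR). Snord57, within Nop56, the gene of a core protein of C/D particles, stood at 527, 520.4, 807 and 604 CPM in the controls, 1880.3 and 2681 CPM in the libraries labelled sgMiat-6 and 669 and 745 CPM in those labelled sgMiat-96. It was high with guide 6 and at control level with guide 96. Snord67, within Ckap5 at chr2:91596070-91596180, did the reverse, at 815, 329.6, 646 and 416 CPM in the controls, 404 and 272 CPM in the libraries labelled sgMiat-6 and 6949 and 7193 CPM in those labelled sgMiat-96. The guides differed for Snord67 by 4.16 ± 0.37 (SE, adjusted p = 3.02e-06) in edgeR. Named here for their difference, these snoRNAs were chosen after their values were seen.

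Some rows had counts in the libraries of 1 guide and next to none elsewhere, and they too were picked out after their values were seen. Ippk, a kinase gene's non-coding transcript, was counted 1, 0, 0 and 0 times in the controls, 238 and 196 times with guide 6 and 1 and 0 with guide 96. Cd68, the gene of a macrophage lysosomal protein, was at 0 in all 4 controls and both libraries of guide 96 and at 134 and 99 with guide 6, at least 84.8-fold higher than 3 counts over the control group allow. In bulk libraries more cells of a type and more RNA per cell cannot be told apart. Xist, the long non-coding RNA that silences an X chromosome, was counted 0, 1, 0 and 0 times in the controls, 30 and 19 times with guide 6 and 0 and 0 with guide 96. Miat itself, Gm12992 (85 and 35 counts with guide 6, 0 to 4 in any other library) and Fcho1 (31 and 26, 0 to 3 elsewhere) followed that pattern. These 6 rows reached the guide fit through the libraries of guide 6 alone, so they are given as counts with no test. The listed miRNAs of blood and immune cells were at 0 in both libraries of guide 6. They reached at most 1 count in any other library, so this says nothing about the source of the Cd68 counts, which was not tested. Which culture or animal each library came from is not in the labels.

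A few rows were high or at 0 in the libraries of guide 96, and they were picked out after their values were seen. Serf2 was counted 0, 1, 0 and 3 times in the controls, 12 and 8 times with guide 6 and 73 and 44 times with guide 96. The long non-coding 5730488B01Rik was counted 1, 1, 1 and 2 times in the controls, 11 and 14 with guide 6 and 49 and 22 with guide 96. For both rows the libraries of guide 6 were also above every control, and neither was in the test of 2 groups, so no test is given. Snord98 had no count with guide 96 (0 and 0, against 2, 8, 7 and 12 in the controls and 6 and 9 with guide 6), and the guides did not pass as different for it (-5.30 ± 1.90 SE, adjusted p = 0.0558, edgeR). Malat1, which was in the test of 2 groups, rose with guide 96 (1.31 ± 0.30 SE, adjusted p = 0.00538, edgeR).

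**Figure D4:**
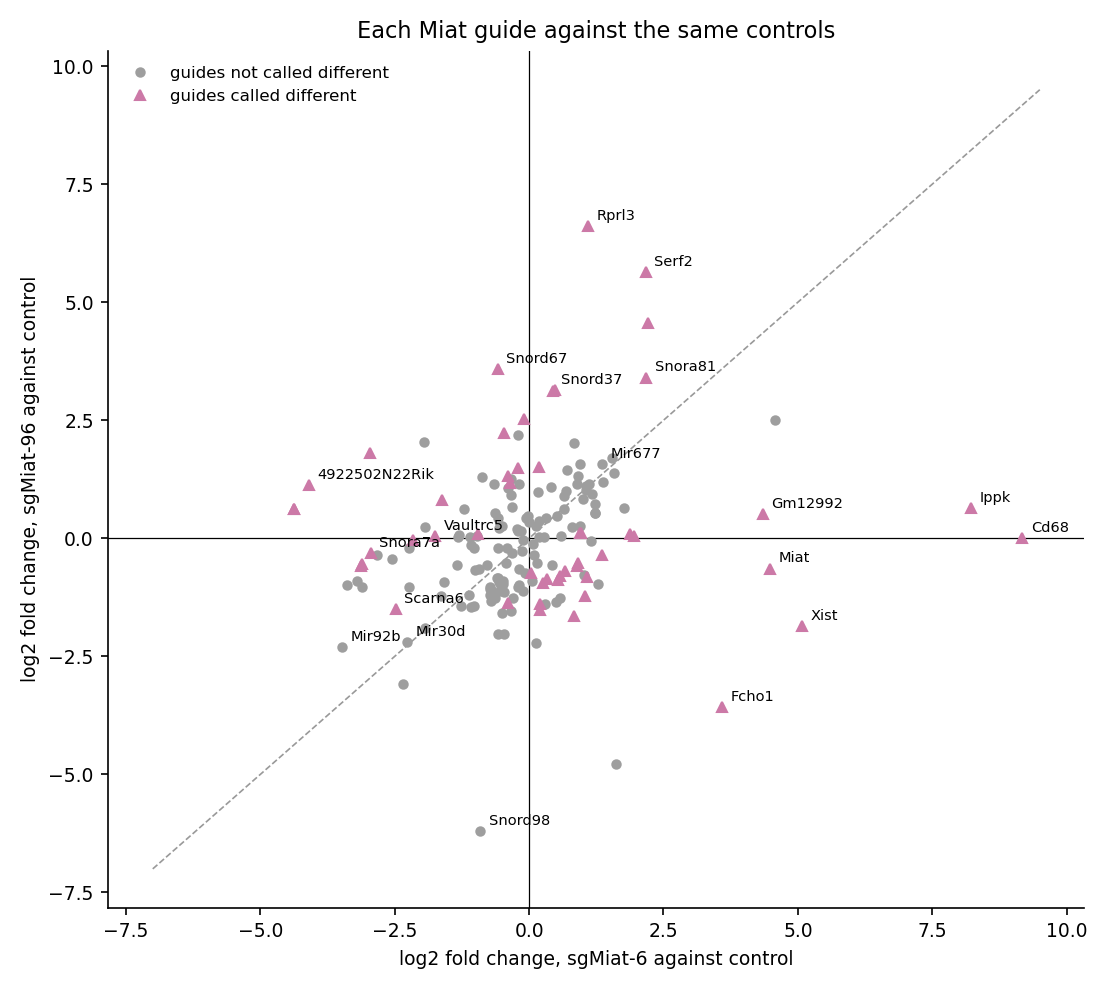
The log2 fold change of each of the 176 transcripts against the 4 shared controls, with guide 6 on the x axis and guide 96 on the y axis, and pink triangles for those that differed between the guides. Points near the dashed diagonal, such as Mir30d, moved alike with both guides, and Ippk, Cd68, Miat and Xist lie far to the right with guide 6 only. Fold changes of rows at 0 in a group depend on edgeR's prior count and are drawn for position, not as bounds.

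More different RNAs were detected in the sgMiat libraries. At 13289 counts outside Rn45s per library, drawn 20 times, the controls held 426, 462, 448 and 453 symbols on average and the sgMiat libraries 510.5, 506, 542 and 564. The lowest sgMiat library was above the highest control, at 447 ± 15.2 against 531 ± 27.3 (SD, n = 4, two-sided exact permutation p = 0.0286). Without that thinning the numbers were 439 to 585 and 564 to 740, and the difference of 139 did not pass (exact permutation p = 0.0571, n = 4 against 4), with control 4, at 585, above library 96-2, at 564.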

How the data were processed

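Small RNA sequencing libraries of 8 samples were compared, 4 per group, as grouped by their titles. Reads were aligned with STAR, and the builds GRCm38 and mm10 are named, per the submitters' processing notes. The counting software and its rule for multi-mapped reads were not given in the sources used here. The authors deposited raw counts, FPKM and TPM values per RefSeq non-coding transcript, 4529 rows per library. Counts alone were used, and the deposited FPKM and TPM values were not. Identical rows of a symbol were counted once (510 dropped, 163 of them with counts) and the others summed, and 3907 of 3942 symbols matched RefSeq. Reads in 7 small RNAs were counted on an enclosing row too, so those row pairs repeat each other.

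Classes were set by symbol and RefSeq name. edgeR 4.0.16 in R 4.3.3 was used for quasi-likelihood tests with TMM factors (0.527 to 1.36), filterByExpr by group (minimum count 10, minimum total 15) and Benjamini-Hochberg adjustment over all tested transcripts at 0.05, two-sided. The common dispersion was 0.211. A second fit had 1 term per guide, filtered by guide. Class shares and detected symbols were compared with exact permutation tests (scipy 1.17.1), adjusted over classes. The edgeR steps were tested on simulated data with a dispersion of 0.05, below that of these libraries, and no difference between guides. That checks the steps and not the error rate in these data. DESeq2 1.42.0 and limma 3.58.1 served as alternatives. Replicates of a group differed by more than sampling noise in chi-squared tests, so none was a repeat deposit. With Rn45s included, the statistic per degree of freedom was 3.14 to 4.47 between controls, 4.57 for 6-1 and 6-2 and 44.6 for 96-1 and 96-2. Intervals and floors cover counting error only, and a floor is 3 counts.

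The members, lists and naming rule were chosen with earlier results of these data known. Named transcripts were, per class, up to 6 past the threshold with the largest change and no overlap, up to 4 past it with the highest level, and the 3 with the highest level. Others are marked where they appear as chosen after their values were seen, or were named to account for a class count. Of the 23 transcripts past the threshold 1 is counted but not reported here. Positions and snoRNA sequences came from GENCODE M21 (GRCm38), mature miRNAs from RefSeq (GRCm38.p6).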

Additional observations from a re-analysis of the deposited data

Results flagged for a closer look

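A single library lay far from the other 3 of its group in 9 of 128 groups looked at, where chance flags about 1 group in 20. The share of the group's range taken by the gap to its nearest neighbour is given for each, past Dixon's critical value for 4 values. Library 96-2 was high for Rn45s, in level (0.925) and in share of all counts (0.864). Library 96-1 was high for Snora62 (0.860), Mir6538 (0.914), Gm4566 (0.870), Scarna3a (0.837) and the pseudogene share of all counts (0.910). Control 1 was high for Gm4566 (0.850), and control 4 was low for the remaining rows outside Rn45s (0.911). Mir6538 stood at 22087 CPM in 96-1 and at 3876 to 5919 CPM in the other 7 libraries.

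The 2 guides differed, by edgeR's quasi-likelihood test of guide 96 minus guide 6, for 15 of the 41 named transcripts tested, against 28.4% of all 176. The 41 all come from the 121 rows of the test of 2 groups, of which 38 differed between the guides. On the log2 scale with its SE, guide 96 was higher for Rprl3 (5.51 ± 0.48), Sf1 (2.70 ± 0.89), Snord37 (2.69 ± 0.39), Snora7a (2.63 ± 0.38), C430049B03Rik (2.57 ± 0.33), Gm5643 (2.43 ± 0.70), Fth1 (2.11 ± 0.52), Vaultrc5 (1.79 ± 0.33), Malat1 (1.70 ± 0.36), Mir6538 (1.52 ± 0.42), Snora81 (1.22 ± 0.40) and Scarna6 (0.98 ± 0.22). It was lower for Snord47 (-1.21 ± 0.27), Snord15a (-0.98 ± 0.22) and Rabggtb (-0.85 ± 0.21). Snora7a, C430049B03Rik, Fth1 and Vaultrc5 fell with guide 6 and did not pass with guide 96. Snora81 and Scarna6 passed in 1 direction with both guides and differed in size.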

How the results depend on the processing

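The 23 calls kept their direction under every alternative in which they were tested. The number of calls moved by more than 1.5 times under library totals with Rn45s (35), a fold minimum of 1.5 (11), without the libraries of guide 6 (43), without those of guide 96 (65) and, chosen after seeing the data, without Rprl3 (14). It was 8 to 22 with 1 library left out, and for guide 6 alone 29 to 73 against 58. DESeq2 gave 21 higher and 7 lower, no filter on low counts 22 and 3, and a minimum count of 30 gave 18 and 11. limma-voom gave 9 and 14, all 12 libraries 15 and 5, and leaving out nested rows, added after seeing the data, 9 and 8. A replicate block built on the final digit of each library's name left 1 call, Mir30d, lower. The numbers are not said to pair libraries. Same-numbered controls and sgMiat libraries deviated from their group means with correlations of 0.21, -0.0019, 0.12 and -0.09. The sgMiat mean was taken over both guides, so these deviations also hold the difference between guides. They cannot show whether same-numbered libraries share a batch. Only controls carry the numbers 3 and 4, so controls 3 and 4 add nothing to the group comparison in the block fit. Without the libraries of guide 96 the change was reversed for Mir6538 (-0.44) and Gm5643 (-1.68). The cause was not tested.

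Class gaps, in percentage points outside Rn45s, were taken for guide 6 and guide 96 alone. They were 9.84 and 0.549 for C/D box snoRNAs, 0.443 and 2.57 for H/ACA box snoRNAs, -3.04 and -1.88 for scaRNAs, -7.13 and -3.36 for miRNA precursors, -5.57 and -11.1 for RNase MRP, 1.01 and 6.20 for RNase P, 2.98 and 5.55 for long non-coding RNAs, 0.402 and 1.64 for pseudogenes and -0.172 and 0.370 for the remaining rows. Of all counts they were -2.47 and -6.73 for C/D and -0.0893 and 0.242 for H/ACA box snoRNAs, and 0.189 and 1.36 for RNase P. Counting identical rows more than once gave 5.82 for long non-coding RNAs and 4.00 for non-coding transcripts of coding genes. With 3 libraries against 4 the smallest exact p is 0.0571, and with 2 against 4 it is 0.0667, so those gaps are values with no call. The gain in detected symbols no longer passed without thinning (139, exact permutation p = 0.0571). Depth limits the comparison to 121 of 1440 symbols, and rows with a few counts per control are measured with wide counting error.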

Other observations

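Some groups of RNAs known from the brain or from ribosome assembly were too sparse to test. Of 4 C/D box snoRNAs of the imprinted Snrpn locus, which is active in neurons, 1 had counts: Snord64, at 1, 11, 27 and 11 in the controls and 0, 9, 2 and 1 in the sgMiat libraries. Of 14 snoRNAs listed for cleavage of the ribosomal precursor, 5 were in the tables and Snord22 alone had counts, 1 to 8 per control and 2 to 10 per sgMiat library. Snora75, an H/ACA box snoRNA, was counted 4, 7, 15 and 9 times in the controls, 0 and 3 with guide 6 and 4 and 5 with guide 96.

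Pisd-ps3, a pseudogene, was counted 2, 5, 8 and 2 times in the controls, 2 and 0 with guide 6 and 20 and 13 with guide 96. The long non-coding 4922502N22Rik stood at 647, 1145, 915 and 792 CPM in the controls, 56.8 and 36.2 CPM in the libraries labelled sgMiat-6 and 1524 and 2700.1 CPM in those labelled sgMiat-96. It fell with guide 6 (-4.10 ± 0.46 SE, adjusted p = 1.70e-05) and rose with guide 96 (1.12 ± 0.32 SE, adjusted p = 0.0196, edgeR), and over both guides gave 0.26. The rows named in both paragraphs were chosen after their values were seen.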
